A study of Homo sapiens with 12 samples.

Results

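The genes described here are 48 genes of ribosome biogenesis and RNA polymerase I transcription. They were listed by symbol with earlier results of these data known, and all were found among the 43236 gene symbols counted in each library. All 48 passed the filter on low counts, so no member was left out of the tests, and 15979 genes were tested in all. The libraries were made from MNNG/HOS cells, a chemically transformed derivative of the human osteosarcoma line HOS (named HOS-MNNG in the labels). Cells received the solvent DMSO, or the small molecule NXP800 at 300 nM as given in the methods of the study, for 6 h or 24 h, with 3 libraries for each of the 4 conditions. The comparison asked how the mRNA of these genes differed between NXP800 and DMSO at each time, and whether the response differed between the times. A single cell line was used, and the labels do not say whether replicates were separate cultures, so the p-values measure the spread between these libraries only.

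Ribosomes are built in the nucleolus. RNA polymerase I transcribes the ribosomal DNA into a long precursor RNA, which small nucleolar ribonucleoproteins (snoRNPs) modify and large assemblies of helicases, GTPases and scaffold proteins fold, cut and join with ribosomal proteins into the small and the large subunit. The pathway takes much of the energy of a growing cell, is driven by MYC and mTORC1 signalling, and is commonly overactive in tumours. The libraries hold polyadenylated mRNA, so they measure the messages of the factors and not ribosomal RNA, the factors as proteins or the rate of ribosome production. Bulk counts also cannot tell less RNA per cell from fewer cells that hold it.

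Counts on genes ranged from 30810614 to 31947656 per library. Reads on no annotated gene made up 6.66 to 8.14% of read pairs at 6 h and 2.73 to 3.67% at 24 h, so the times differed in this respect while the conditions within a time overlapped. The part of this in the differences between the times was not tested. Mesenchymal and osteoblast markers of the line were present, with VIM at 3338 to 5891 CPM (counts scaled to a common library total), COL1A1 at 143.0 to 566.4 and RUNX2 at 20.7 to 42.5, while COL1A2 and ALPL were at or near 0. Among markers of other cell types, PTPRC, CD3E, CDH5, ALB and MYH6 reached at most 0.240 CPM, PECAM1 0.914 and CD14 3.36. The epithelial gene EPCAM read 5.59 to 10.2 CPM, and the keratin gene KRT18 stood at 580.2 to 919.9.

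A promoter motif, which the choice of the list did not use, was present in part of the 48 genes. The E-box CACGTG, a palindrome that reads the same on both strands and is bound by MYC with MAX and by related factors, was looked for from 250 bases before to 50 after the start of the gene, in windows from RefSeq (GRCh38.p14). It lay in 14 of the 40 members with a window (35%), against 7.43% of 27305 genes and 9.90% of the 12235 tested genes with a window. The AP-1 motif TGANTCA and the ATF4 composite element TGATGNAAT, searched on both strands, lay in 0 of 40 member windows, against 5.15% and 0.515% of the tested genes. None of these motifs contains another. A match is a description of the sequence and not a binding site. E-boxes upstream of the start are shown for 4 members that are described below, with the E-box in capitals and the strand of the gene printed.
NOP10, chr15:34343286-34343321, minus strand: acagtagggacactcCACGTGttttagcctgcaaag
NOP10, chr15:34343137-34343162, minus strand: aaggaaattgacgaaCACGTGacgcg
UTP4, chr16:69132618-69132648, plus strand: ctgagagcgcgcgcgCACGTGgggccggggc
UTP20, chr12:101280080-101280104, plus strand: gttcttttttccgtcCACGTGaccc
EBNA1BP2, chr1:43172787-43172820, minus strand: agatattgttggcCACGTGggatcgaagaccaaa

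Of the 14 members with an E-box, 5 were called higher and 1 lower at 6 h (median log2 fold change 0.10), and 3 were higher and 4 lower at 24 h (median -0.10), where 25% and 27.8% of all tested genes were called higher and lower at 6 h and 27.5% and 28.6% at 24 h. Of the 26 members with a window and no E-box, 8 were higher and 5 lower at 6 h (median 0.02), and 5 were higher and 6 lower at 24 h (median -0.04). Among the genes shown above, UTP4 was called higher at both times, UTP20 was called lower at 24 h, and NOP10 and EBNA1BP2 were called at neither time.

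As a set, the 48 genes moved little, and their members moved in both directions. At 6 h, 16 were called higher and 8 lower at an adjusted p below 0.05 and 24 were not called, with a median log2 fold change of 0.05, which was 0.02 without NXP800 replicate 1, 0.03 without DMSO replicate 2 or 3 of 6 h and 0.08 without NXP800 replicate 2 of 24 h. The higher share was 33.3%, where 25% of all tested genes were called higher, and the lower share was 16.7%, where 27.8% were called lower. At 24 h, 10 were called higher and 14 lower, which is 20.8% against 27.5% of all tested genes and 29.2% against 28.6%. The median was then -0.06, beside -0.003 over all tested genes, and the median over all genes at 6 h was -0.05. Nearly all members are well expressed, and among the 5697 genes whose mean log2 CPM was 5 or more, a floor chosen after the values were seen, 27.9% were higher and 34.3% lower at 6 h and 26.3% and 38.7% at 24 h.

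The fate of single members over time varied. Higher at both times were 9 members, RRN3, NOP58, DKC1, GAR1, RRP12, UTP4, DDX10, NOP2 and GNL2, where 16.5% of all tested genes were higher at both. Lower at both were 6 members, UBTF, TCOF1, NHP2, NCL, MRTO4 and GRWD1, against 18.5% of all tested genes. HEATR1 was higher at 6 h and lower at 24 h, and 16 members were called at neither time in the main fit, which did not pair the libraries. A fit with a replicate block, which compares libraries of the same number, called 5 further members at 6 h and 11 at 24 h. Over all tested genes it called 9953 at 6 h and 10411 at 24 h, where the main fit called 8435 and 8953. The NXP800 and DMSO libraries did not overlap in CPM for 18 members that were higher and 13 that were lower at 6 h, where 29.3% and 32.7% of all tested genes stood apart in these directions. At 24 h they stood apart for 9 and 17 members, beside 29% and 30.1% of all tested genes.

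**Figure D1:**
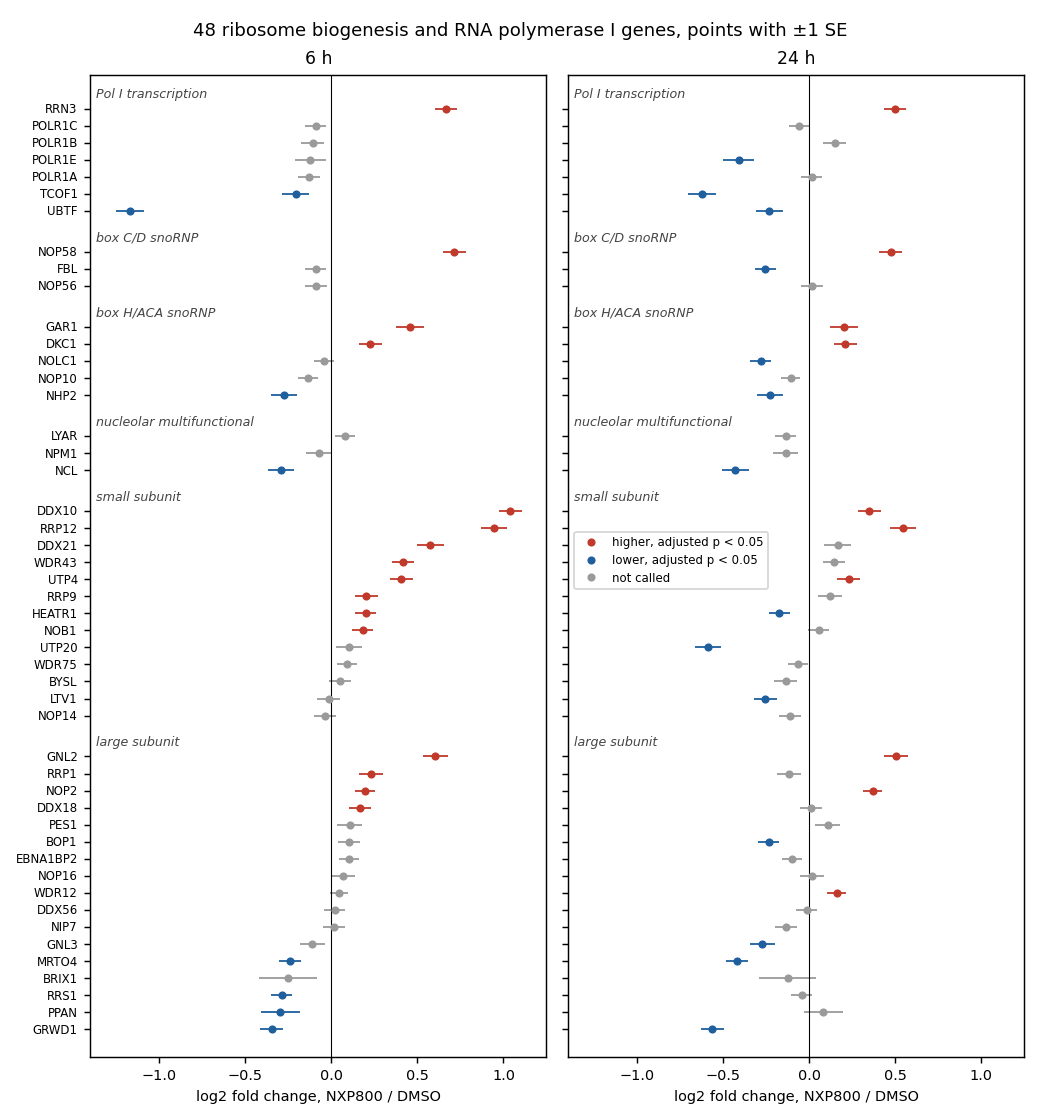
Log2 fold change of NXP800 over DMSO (x axis) for each of the 48 genes at 6 h and 24 h, grouped by role and ordered within a role by the value at 6 h; points are estimates over 3 libraries a condition, bars are ±1 SE, red and blue mark genes called higher or lower. UBTF stands far to the left at 6 h at -1.17 and DDX10 far to the right at 1.04, and no small subunit gene is blue at 6 h.

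RNA polymerase I transcription held the largest fall and one of the larger rises. UBTF encodes the upstream binding factor, an HMG-box protein that binds ribosomal DNA and holds its chromatin open. It lies on chr17:44205040-44221304 on the minus strand. At 6 h it read 214.6, 195.8 and 199.6 CPM in the DMSO libraries and 89.2, 84.0 and 97.1 in the NXP800 libraries, and at 24 h 203.4, 178.7 and 191.8 in DMSO and 168.6, 144.9 and 175.0 in NXP800. All NXP800 libraries lay below all DMSO libraries within each time, by a wide gap at 6 h and a narrow one at 24 h. The 6 h level was 0.443 times that in DMSO (log2 fold change -1.17 ± 0.0797 SE, adjusted p = 7.81e-09), and the 24 h level 0.851 times (-0.23 ± 0.0783, adjusted p = 0.0187). The response at 24 h was therefore less negative than that at 6 h (24 h minus 6 h 0.94 ± 0.111, adjusted p = 1.91e-05). The call at 24 h was lost without DMSO replicate 1 (adjusted p = 0.0804), without NXP800 replicate 2 (0.159), with scaling by library size only (0.0975) and with only the libraries of 24 h in the fit (0.0546). The span of the gene lies within that of ATXN7L3-AS1, which had 1 to 6 counts per library.

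RRN3, the initiation factor TIF-IA that brings RNA polymerase I to UBTF-bound promoters and is a known target of growth signalling, moved the other way. It lies on chr16:15060022-15094335 on the minus strand. It read 79.1, 77.1 and 75.1 CPM in DMSO and 129.5, 118.8 and 118.3 in NXP800 at 6 h, and 62.8, 61.2 and 62.3 in DMSO and 84.0, 95.4 and 83.4 in NXP800 at 24 h. The groups did not overlap at either time. It rose 1.59-fold at 6 h (0.66 ± 0.0637, adjusted p = 3.3e-07) and 1.41-fold at 24 h (0.50 ± 0.0644, adjusted p = 6.91e-06). Near-identical copies on the same chromosome, RRN3P1, RRN3P2 and RRN3P3, had 38 to 172, 15 to 53 and 29 to 74 counts per library. Reads with multiple alignments were left out of the counts, so reads that match RRN3 and a copy equally would be missing from both. Their number was not examined. PDXDC1, whose annotated span covers RRN3, had 1541 to 2021 counts.

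TCOF1 encodes treacle, a nucleolar scaffold that works with UBTF and polymerase I and is mutated in Treacher Collins syndrome. It read 245.5, 209.0 and 229.2 CPM in DMSO and 201.7, 191.8 and 198.6 in NXP800 at 6 h, and 270.9, 239.3 and 276.3 in DMSO and 173.6, 151.3 and 184.8 in NXP800 at 24 h. The fall was small at 6 h (-0.21 ± 0.0806, adjusted p = 0.0396) and larger at 24 h (-0.63 ± 0.0810, adjusted p = 6.71e-06), and the difference of the responses passed the threshold (-0.42 ± 0.114, adjusted p = 0.0133). The 6 h call was lost without each single 6 h library other than DMSO replicate 2, with adjusted p from 0.0670 (without NXP800 replicate 1) through 0.0780 (NXP800 replicate 3), 0.0817 (DMSO replicate 3) and 0.119 (NXP800 replicate 2) to 0.177 (DMSO replicate 1). It was also lost with DESeq2's size factors (0.0652) or Wald test (0.0750) and with offsets for GC content and length (0.482).

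The polymerase subunits themselves moved less. POLR1E, a subunit of the heterodimer that helps initiation, read 57.2, 52.1 and 53.3 CPM in DMSO and 53.0, 49.2 and 47.3 in NXP800 at 6 h, and fell at 24 h from 74.9, 61.4 and 70.8 to 55.9, 44.8 and 55.2 (-0.41 ± 0.0902, adjusted p = 0.00104). POLR1A and POLR1B, which form the catalytic core, and POLR1C, which is shared with RNA polymerase III, were called at neither time, with log2 fold changes between -0.13 and 0.15. In the fit with the replicate block, which compares libraries of the same number, POLR1A (adjusted p = 0.0249) and POLR1E (0.0411) were called lower at 6 h, POLR1B (0.0114) was called higher at 24 h, and the differences of POLR1B (0.00592) and POLR1E (0.00324) were called. Among 10 other polymerase I subunits and initiation factors, 4 were higher and 1 lower at 6 h and 2 and 1 at 24 h. The shares of all tested genes were 25% and 27.8% at 6 h and 27.5% and 28.6% at 24 h. TAF1D, part of the selectivity factor SL1, rose at 6 h from 40.9 ± 4.47 to 82.1 ± 7.95 CPM (SD, n = 3; 1.01 ± 0.129 SE, adjusted p = 7.51e-06) and was higher by 0.50 on the log2 scale at 24 h. TAF1A, of the same factor, rose by 0.65 at 6 h, and the subunit gene POLR1G fell by 0.39 at 6 h and by 0.59 at 24 h.

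**Figure D2:**
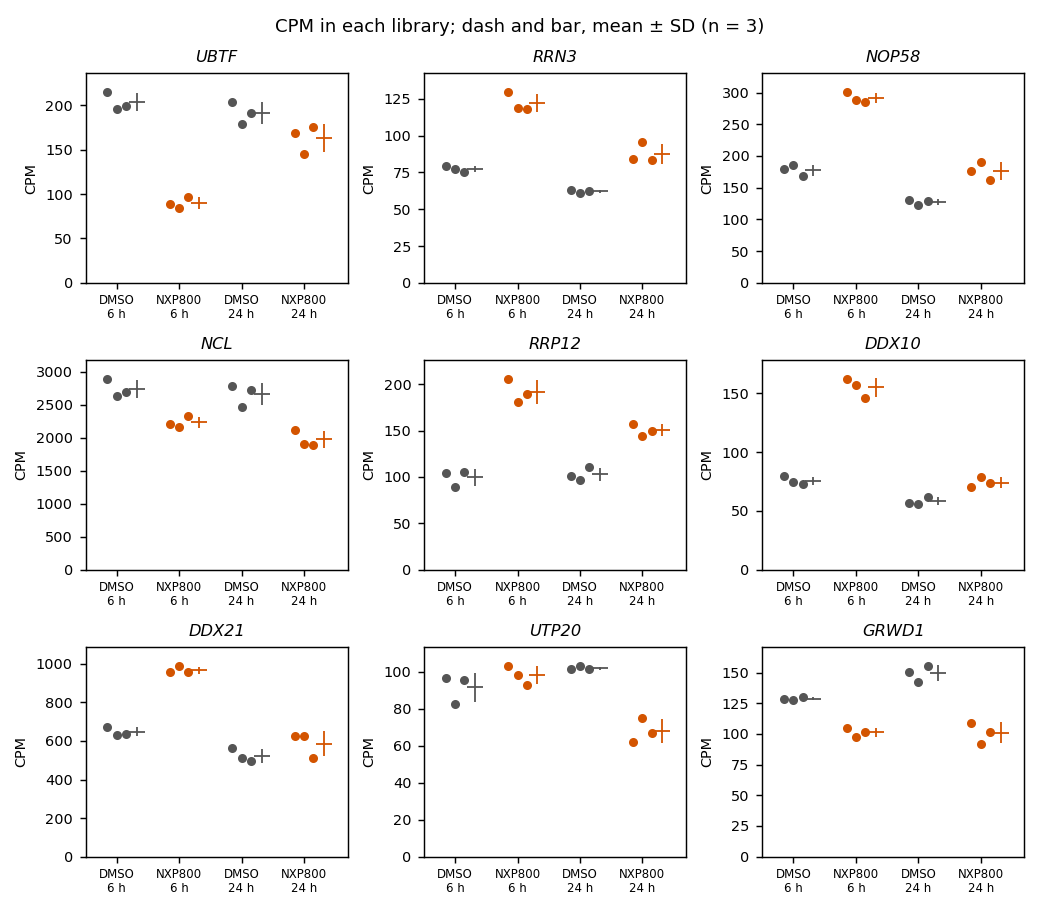
CPM (y axis, from 0) of 9 of the genes in each of the 12 libraries, in 4 conditions along the x axis; dots are libraries, the dash and bar beside them are the mean and SD of 3 libraries, grey is DMSO and orange NXP800. UBTF drops to 84.0 to 97.1 CPM at 6 h and reads 144.9 to 175.0 at 24 h, and UTP20 is lower with NXP800 at 24 h but not at 6 h.

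The snoRNP proteins split within their complexes. Box C/D snoRNPs place 2′-O-methyl groups on ribosomal RNA with the methyltransferase fibrillarin (FBL) on a core of NOP56 and NOP58. NOP58 read 178.8, 185.1 and 168.2 CPM in DMSO and 300.4, 288.5 and 284.5 in NXP800 at 6 h, and 130.5, 122.7 and 129.1 in DMSO and 176.2, 191.2 and 162.8 in NXP800 at 24 h. It rose 1.64-fold at 6 h (0.71 ± 0.0655, adjusted p = 2.01e-07) and 1.39-fold at 24 h (0.47 ± 0.0658, adjusted p = 1.46e-05). Its partner NOP56 was called at neither time, with 370.1 ± 10.5 and 347.6 ± 24.8 CPM (SD, n = 3) in DMSO and NXP800 at 6 h and 338.1 ± 7.52 and 342.2 ± 16.7 at 24 h. FBL was not called at 6 h (-0.09 ± 0.0617, adjusted p = 0.235) and fell at 24 h from 271.8, 266.8 and 287.3 to 245.4, 220.7 and 226.3 CPM (-0.25 ± 0.0615, adjusted p = 0.00217).

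Box H/ACA snoRNPs convert uridine to pseudouridine, with dyskerin (DKC1) as the enzyme and GAR1, NHP2 and NOP10 bound to it. DKC1 rose by 0.23 ± 0.0661 at 6 h (adjusted p = 0.00852) and by 0.21 ± 0.0662 at 24 h (adjusted p = 0.0128), from 364.9 ± 5.44 to 427.1 ± 14.1 CPM and from 302.3 ± 18.3 to 349.7 ± 24.7 (SD, n = 3), with libraries that overlapped at 24 h. GAR1 read 57.5, 56.6 and 54.8 CPM in DMSO and 84.3, 69.3 and 78.1 in NXP800 at 6 h (0.46 ± 0.0815, adjusted p = 0.000198), and at 24 h the rise was 0.20 ± 0.0821 (adjusted p = 0.0452). NHP2 moved down, by 0.28 at 6 h (293.0 ± 22.5 to 242.0 ± 6.97 CPM, adjusted p = 0.00674) and by 0.23 at 24 h (385.9 ± 21.0 to 329.2 ± 32.5, adjusted p = 0.0186). Of its annotated exons 28.0% are overlapped on the other strand by RMND5B. NOP10 was called at neither time (-0.14 at 6 h, -0.11 at 24 h), but with the replicate block it was called lower at 6 h (adjusted p = 0.0189).

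The calls of these 3 genes at 24 h each depended on single libraries. DKC1 was not called without DMSO replicate 3 (adjusted p = 0.0628). NHP2 was not called without DMSO replicate 1 (0.0587), DMSO replicate 3 (0.0623) or NXP800 replicate 2 (0.159), with library size only (0.0764) and with the libraries of 24 h alone (0.0584). GAR1 was not called without DMSO replicate 1 (0.0769), DMSO replicate 2 (0.210) or NXP800 replicate 1 (0.179) of 24 h, nor without any DMSO replicate (0.0530 to 0.0586) or NXP800 replicate 3 (0.0549) of 6 h. NOLC1, a chaperone of snoRNPs in the nucleolus, was not called at 6 h (-0.04 ± 0.0602) and fell at 24 h from 420.0, 381.7 and 404.3 to 343.8, 329.6 and 318.6 CPM (-0.28 ± 0.0604, adjusted p = 0.000841). Its difference of responses (-0.24 ± 0.0853) sat at the threshold, with an adjusted p of 0.0499 that exceeded 0.05 without any single library other than DMSO replicate 2 and NXP800 replicate 1 of 24 h (up to 0.119, without DMSO replicate 2 of 6 h) and with library size only (0.134) or no filter (0.182). Of 11 snoRNP assembly factors, 3 were higher and 2 lower at 6 h, and 3 and 4 at 24 h. That is 27.3% and 18.2% at 6 h, beside 25% and 27.8% of all tested genes. At 24 h it is 27.3% and 36.4%, beside 27.5% and 28.6%. ZNHIT6, needed for box C/D assembly, rose by 0.62 at 6 h and by 0.30 at 24 h, and RUVBL2, an ATPase of the R2TP chaperone complex, fell by 0.30 at 24 h.

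Of NCL, NPM1 and LYAR, nucleolar proteins with several roles, NCL was the one called. NCL, nucleolin, which binds ribosomal RNA precursors and ribosomal DNA chromatin, read 2891, 2637 and 2689 CPM in DMSO and 2215, 2159 and 2332 in NXP800 at 6 h, and 2786, 2476 and 2724 in DMSO and 2126, 1909 and 1899 in NXP800 at 24 h. The groups did not overlap, and NCL fell by 0.29 at 6 h (SE 0.0761, adjusted p = 0.00403) and by 0.43 at 24 h (SE 0.0762, adjusted p = 0.000161). NPM1, nucleophosmin, a histone chaperone and ribosome export protein, was called at neither time at 3257 ± 64.6 and 3092 ± 47.6 CPM at 6 h and 2904 ± 153.8 and 2640 ± 173.7 at 24 h (SD, n = 3, DMSO and NXP800). LYAR, a nucleolar regulator of ribosomal DNA transcription, was likewise not called (0.08 at 6 h, -0.14 at 24 h). With the replicate block both were called lower at 24 h (adjusted p = 0.0372 for NPM1 and 0.0231 for LYAR). Per kilobase of the canonical transcript, NPM1 had the highest level of the 48 genes in DMSO at 6 h (2467 CPM per kb), before NCL (698.1) and NHP2 (375.6), and PPAN (3.20) and BRIX1 (3.89) had the lowest. Per kilobase of all annotated exons, NPM1 (391.8) and NCL (307.1) lay closer together, and BRIX1 (1.31) was below PPAN (2.55).

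The small subunit factors had the highest median at 6 h of the 6 roles. Of 13, 8 were called higher and 0 lower, with a median log2 fold change of 0.20, while 3 were higher and 3 lower at 24 h, with a median of 0.06. At 6 h 61.5% of these 13 genes were thus higher, beside 25% of all tested genes and 27.9% of the well-expressed genes. The members were chosen with earlier results of these data known, so this share is a description only. Of 37 other small subunit processome factors, 11 were higher and 10 lower at 6 h. At 24 h 23.1% were higher and 23.1% lower, beside 27.5% and 28.6% of all tested genes. These factors act in the small subunit processome, which folds the first part of the precursor RNA, or in the later steps of the 40S subunit. The rises at 6 h were led by DDX10 and RRP12.

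DDX10, a DEAD-box helicase of early small subunit assembly, lies on chr11:108665069-108940927 on the plus strand. It read 79.3, 74.2 and 72.6 CPM in DMSO and 162.0, 156.7 and 146.1 in NXP800 at 6 h, and 56.7, 55.9 and 61.9 in DMSO and 70.0, 78.7 and 73.3 in NXP800 at 24 h. The groups stood apart at both times, and the gap was several times wider at 6 h. The gene rose 2.05-fold at 6 h (1.04 ± 0.0666, adjusted p = 4.41e-09) and 1.27-fold at 24 h (0.35 ± 0.0673, adjusted p = 0.000352), and the difference of the responses was -0.69 ± 0.0943 (adjusted p = 7.48e-05).

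RRP12, a HEAT-repeat protein of pre-40S maturation and subunit export, lies on chr10:97356357-97401370 on the minus strand. It read 104.6, 89.1 and 105.2 CPM in DMSO and 205.5, 180.6 and 189.0 in NXP800 at 6 h, and 101.2, 97.2 and 110.8 in DMSO and 157.3, 144.3 and 149.8 in NXP800 at 24 h. The DMSO libraries stood at a like level at both times and the NXP800 libraries above them. It rose 1.92-fold at 6 h (0.94 ± 0.0764, adjusted p = 5.2e-08) and 1.46-fold at 24 h (0.55 ± 0.0762, adjusted p = 1.48e-05), with a difference of -0.40 ± 0.107 (adjusted p = 0.0125).

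DDX21, an RNA helicase that senses polymerase I and II transcription, read 675.1, 633.6 and 638.8 CPM in DMSO and 957.1, 989.3 and 956.1 in NXP800 at 6 h (0.58 ± 0.0795, adjusted p = 1.59e-05). At 24 h it read 564.7, 511.0 and 494.8 in DMSO and 624.2, 624.9 and 511.1 in NXP800, so that 1 NXP800 library lay within the DMSO range and the change was not called (0.16 ± 0.0794, adjusted p = 0.0890). Without that library, NXP800 replicate 3, it was called (adjusted p = 0.00850), as it was without DMSO replicate 1 (0.0419), with the replicate block (0.0152) and with scaling by library size only (0.0117). The difference of the responses was called (-0.41 ± 0.112, adjusted p = 0.0134). WDR43 and UTP4, subunits of the t-UTP subcomplex that also supports ribosomal DNA transcription, rose by 0.42 ± 0.0626 (adjusted p = 3.67e-05) and 0.41 ± 0.0662 (adjusted p = 8.08e-05) at 6 h. At 24 h UTP4 was higher, from 196.6 ± 7.35 to 230.2 ± 7.82 CPM (0.23, adjusted p = 0.00778), and WDR43 was not called (0.14, adjusted p = 0.0612), although it was with the block (0.0187), without DMSO replicate 1 (0.0493) and without NXP800 replicate 3 (0.0139).

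UTP20, a large HEAT-repeat scaffold of the processome, was not called at 6 h and fell at 24 h. It read 96.6, 82.5 and 95.2 CPM in DMSO and 103.0, 98.2 and 93.0 in NXP800 at 6 h, where the groups overlapped (0.10 ± 0.0752, adjusted p = 0.278). At 24 h it read 101.5, 102.8 and 101.2 in DMSO and 62.0, 74.7 and 66.6 in NXP800, a clear gap. The level was 0.665 times that in DMSO (-0.59 ± 0.0759, adjusted p = 6.55e-06), and the difference of the responses was -0.69 ± 0.107 (adjusted p = 0.000222).

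HEATR1, another t-UTP protein, was the member called in opposite directions. It rose at 6 h from 134.7, 130.4 and 138.0 to 155.7, 155.0 and 151.9 CPM (0.20 ± 0.0626, adjusted p = 0.0137) and was lower at 24 h, 137.9, 126.0 and 143.3 in DMSO against 113.8, 119.1 and 128.0 in NXP800 (-0.17 ± 0.0628, adjusted p = 0.0264), where the libraries overlapped. The difference was called (-0.37 ± 0.0887, adjusted p = 0.00575) and was called in every other fit and with every library left out. The 6 h call was lost without DMSO replicate 2 (adjusted p = 0.0569) and with GC and length offsets (0.0550). The 24 h call was lost without DMSO replicate 1 (0.0699), DMSO replicate 3 (0.118), NXP800 replicate 1 (0.105) or NXP800 replicate 2 (0.111), and with library size only (0.282), no filter (0.111) or the libraries of 24 h alone (0.107). Of its annotated exons 23.1% are overlapped on the other strand by LGALS8.

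RRP9, a U3 snoRNP protein, and NOB1, the endonuclease that makes the end of the 18S RNA, rose by 0.20 ± 0.0691 (adjusted p = 0.0206) and 0.18 ± 0.0604 (0.0181) at 6 h. RRP9 was not called without DMSO replicate 1 (0.0576), DMSO replicate 2 (0.0875), NXP800 replicate 1 (0.0852) or NXP800 replicate 3 (0.0577), and NOB1 without DMSO replicate 1 (0.0564), DMSO replicate 3 (0.0657) or NXP800 replicate 1 (0.0594), or with no filter (0.0517). LTV1, a chaperone-like factor of pre-40S particles, fell at 24 h from 74.6, 74.0 and 72.6 to 61.4, 65.3 and 58.5 CPM (-0.26 ± 0.0668, adjusted p = 0.00375), a call lost with library size only (0.0566). NOP14, WDR75 and BYSL were called at neither time, with values between -0.14 and 0.09. With the block, RRP9 (adjusted p = 0.0426) was called higher at 24 h, and NOP14 (0.0364) and BYSL (0.0183) were called lower. With offsets added, BYSL read 0.20 at 6 h and was called higher (0.00057), and at 24 h RRP9 (7.87e-05) and NOB1 (0.00516) were called higher and WDR75 (0.0264) lower.

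**Figure D3:**
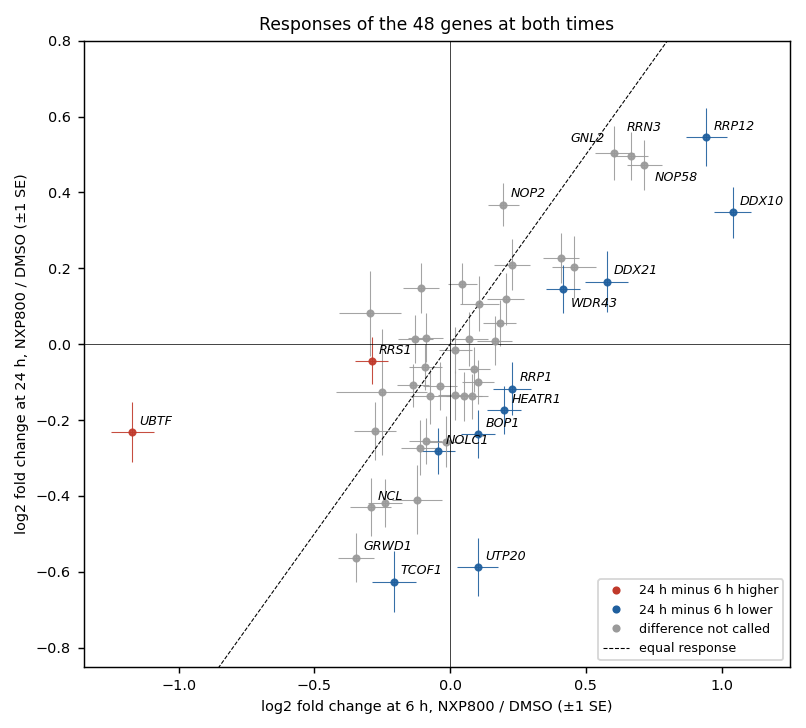
Log2 fold change of NXP800 over DMSO at 24 h (y axis) against that at 6 h (x axis) for the 48 genes, with ±1 SE; the dashed line marks an equal response at both times, and colours mark genes whose 24 h minus 6 h difference was called. UBTF and RRS1 lie above the line with a called difference, and DDX10, DDX21 and UTP20 are among the 10 below it with a called difference.

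The responses of the 13 small subunit members were lower in value at 24 h than at 6 h. The difference was negative for 13 of 13, from -0.69 to -0.07, where 8029 of all 15979 tested genes and 3333 of the 5697 well-expressed genes had a negative difference. With library size only NOP14 read 0.000522, so that not all 13 were negative there. The difference was called for 6, RRP12, UTP20, WDR43, HEATR1, DDX10 and DDX21. Among 37 other small subunit processome factors, listed from general knowledge, the difference was negative for 24. It was called lower for 4 and higher for 1 of these, with a median of -0.07. Over the 48 genes 10 differences were called lower (20.8%) and 2 higher (4.17%), where 13.8% and 12% of all tested genes, and 20.5% and 10.9% of those with a mean log2 CPM of 5 or more, were called lower and higher. The median difference was -0.16 over the 48 genes and -0.06 over the well-expressed genes. With the replicate block 19 were called lower and 5 higher, and 6284 of all tested genes were called, beside 4129 in the main fit. The differences share the 12 libraries, so they are not independent of each other. Besides the 6 small subunit genes and TCOF1 and NOLC1, the members called lower were RRP1 (-0.35 ± 0.0993, adjusted p = 0.0175) and BOP1 (-0.34 ± 0.0899, adjusted p = 0.0112). WDR43's difference (-0.27, adjusted p = 0.0327) exceeded 0.05 without DMSO replicate 1 (0.0578) or 3 (0.0767) or NXP800 replicate 1 (0.0888) or 2 (0.0540) of 6 h, without DMSO replicate 1 (0.0788) or 3 (0.0540) or NXP800 replicate 3 (0.0809) of 24 h, and with library size only (0.103) or no filter (0.0956). The members called higher were UBTF and RRS1, and that of RRS1 (0.25 ± 0.0872, adjusted p = 0.0488) was lost without any single library other than DMSO replicate 3 and NXP800 replicate 1 of 24 h (up to 0.131, without DMSO replicate 2 of 24 h) and with no filter (0.0842) or DESeq2's size factors (0.0611). Differences that the block added to the calls were those of POLR1B, POLR1E, NOP58 (adjusted p = 0.0177), GAR1 (0.0393), LYAR (0.0203), UTP4 (0.0353), BYSL (0.0367), LTV1 (0.00855), NOP2 (0.0410), EBNA1BP2 (0.0225), PPAN (0.0321) and GRWD1 (0.0187).

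Of the 17 large subunit factors, 9 were not called at 6 h and 10 at 24 h. At 6 h 4 were higher, GNL2, NOP2, RRP1 and DDX18, and 4 were lower, MRTO4, PPAN, RRS1 and GRWD1 (median 0.04). This is 23.5% each way, beside 25% and 27.8% of all tested genes. At 24 h 3 were higher, GNL2, NOP2 and WDR12, and 4 were lower, BOP1, GNL3, MRTO4 and GRWD1 (median -0.04). These are 17.6% and 23.5%, beside 27.5% and 28.6% of all tested genes. GNL2, a nucleolar GTPase of 60S export, read 80.5, 73.1 and 73.7 CPM in DMSO and 123.0, 111.6 and 110.8 in NXP800 at 6 h, and 71.4, 62.2 and 68.4 in DMSO and 102.7, 91.9 and 92.0 in NXP800 at 24 h. It rose by a like amount at both times, 1.52-fold (0.60 ± 0.0714, adjusted p = 3.19e-06) and 1.42-fold (0.50 ± 0.0719, adjusted p = 1.84e-05). NOP2, the methyltransferase that modifies a cytosine of 28S RNA, read 225.9, 223.3 and 220.8 CPM in DMSO and 287.5, 281.0 and 296.0 in NXP800 at 24 h (0.37 ± 0.0571, adjusted p = 4.35e-05), and was higher by 0.20 at 6 h (adjusted p = 0.00845). The 6 h call of NOP2 was lost without NXP800 replicate 1 (0.0505). In GENCODE, 54.4% of its annotated exons overlap another gene on the same strand. The counts were made on RefSeq genes, where no counted protein-coding or long noncoding gene was found to overlap its span.

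GRWD1, a histone and ribosomal protein chaperone, read 128.2, 127.8 and 130.2 CPM in DMSO and 104.9, 97.4 and 101.2 in NXP800 at 6 h, and 150.1, 142.3 and 155.3 in DMSO and 109.2, 92.1 and 101.7 in NXP800 at 24 h. It fell at both times without overlap (-0.35 ± 0.0651, adjusted p = 0.000307, and -0.56 ± 0.0652, adjusted p = 2.05e-06). MRTO4, which holds the place of the ribosomal stalk in the pre-60S particle, fell by 0.24 at 6 h (130.7 ± 5.03 to 110.6 ± 4.28 CPM, adjusted p = 0.00431) and by 0.42 at 24 h (127.0 ± 1.89 to 94.9 ± 7.46, adjusted p = 3.44e-05). RRS1, of the 5S ribonucleoprotein loading complex, fell by 0.29 at 6 h, from 174.7 ± 3.19 to 142.9 ± 3.26 CPM (adjusted p = 0.000933), and was not called at 24 h (187.0 ± 14.2 and 181.4 ± 6.44).

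BOP1, PES1 and WDR12 form the PeBoW complex of pre-60S processing and were not called together. BOP1 was not called at 6 h (0.10, or 0.29 and called higher with GC and length offsets, adjusted p = 4.21e-06) and fell at 24 h from 294.8, 289.8 and 290.4 to 252.0, 227.9 and 262.7 CPM (-0.24 ± 0.0635, adjusted p = 0.00461), a call lost without NXP800 replicate 2 (0.0512). WDR12 was higher at 24 h, from 81.8, 79.2 and 78.8 to 86.4, 91.9 and 89.3 CPM (0.16 ± 0.0540, adjusted p = 0.0198), a call lost without DMSO replicate 2 (0.0579) or DMSO replicate 3 (0.0626), with no filter (0.0695) and with GC and length offsets (0.186). PES1 was called at neither time (0.11 at both), and was called higher with the block (adjusted p = 0.0451 at 6 h and 0.0464 at 24 h), and with offsets added (0.28 and 0.23, adjusted p = 1.73e-05 and 0.000121). GNL3, nucleostemin, fell at 24 h (-0.27 ± 0.0723, adjusted p = 0.00423), a call lost with library size only (0.0664), and with the block was called lower at 6 h as well (0.0473).

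The other large subunit calls rested on small changes. RRP1 was higher at 6 h (0.23 ± 0.0702, adjusted p = 0.0116), without NXP800 replicate 1 not (0.0563), as was its difference (0.0522). DDX18, a DEAD-box helicase, was higher by 0.16 at 6 h (adjusted p = 0.0406), a call lost without each single 6 h library other than DMSO replicate 1, up to 0.145 without DMSO replicate 2, and with no filter (0.0902) or GC and length offsets (0.158). NOP16, DDX56, NIP7, EBNA1BP2 and BRIX1 were called at neither time, and with the block NIP7 (0.0282) and RRP1 (0.0366) were called lower at 24 h. With offsets added, NOP16 (0.00336), DDX56 (0.00479) and EBNA1BP2 (0.0151) were called higher and BRIX1 (0.0382) lower at 6 h. PPAN and BRIX1, both of the Brix family that binds pre-60S RNA, had far lower counts than the rest, 182 to 266 and 155 to 250 per library. PPAN was lower at 6 h (7.36 ± 0.430 to 6.00 ± 0.403 CPM, -0.30 ± 0.114, adjusted p = 0.0380), a call lost without DMSO replicate 1 (0.0680) or 3 (0.126) or NXP800 replicate 1 (0.134) or 3 (0.0785) of 6 h, without NXP800 replicate 2 of 24 h (0.0657), and with GC and length offsets (0.325), library size only (0.0511), no filter (0.0975), the libraries of 6 h alone (0.0535) or DESeq2's Wald test (0.0821). The read-through gene PPAN-P2RY11 covers 97.6% of the PPAN span and TTC23L covers 96.9% of that of BRIX1. PPAN-P2RY11 and P2RY11 had 0 counts in all libraries and TTC23L 0 to 8. The part of reads set aside as ambiguous in the low levels of PPAN and BRIX1 was not tested.

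Other steps of the pathway were followed with lists written from general knowledge. The largest share of rises was among 17 genes of subunit export and cytoplasmic maturation. Of these, 12 were higher and 3 lower at 6 h (median 0.29), and 8 and 4 at 24 h (median 0.11). That is 70.6% and 17.6% at 6 h, beside 25% and 27.8% of all tested genes higher and lower. At 24 h it is 47.1% and 23.5%, beside 27.5% and 28.6%. RIOK3, a kinase of late 40S maturation, rose from 60.5 ± 2.42 to 109.3 ± 7.20 CPM at 6 h (0.85 ± 0.0795, adjusted p = 2.44e-07) and from 55.4 ± 3.52 to 105.9 ± 11.7 at 24 h (0.94 ± 0.0800, adjusted p = 6.86e-08). XPO1, the export receptor CRM1 that carries both subunits out of the nucleus, fell from 323.2 ± 8.81 to 233.3 ± 1.44 CPM at 6 h (-0.47 ± 0.0549, adjusted p = 2.79e-06) and from 306.6 ± 10.5 to 226.4 ± 6.13 at 24 h (-0.44 ± 0.0549, adjusted p = 4.89e-06). RSL24D1, which is exchanged for a ribosomal protein in the cytoplasm, rose by 0.75 at 6 h and EFL1, the GTPase that removes EIF6, by 0.78 at 24 h.

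Of 37 other small subunit processome factors, 11 were higher and 10 lower at 6 h and 8 and 14 at 24 h. This is 29.7% and 27.0% at 6 h and 21.6% and 37.8% at 24 h. For this and the following lists, the shares of all tested genes were 25% higher and 27.8% lower at 6 h. At 24 h they were 27.5% and 28.6%. IMP3, a U3 snoRNP protein, fell from 84.8 ± 4.77 to 43.6 ± 3.45 CPM at 6 h (-0.96 ± 0.0726, adjusted p = 2.53e-08), UTP25 rose by 0.73, and DDX47 fell by 0.52 at 24 h. The even split among these 37 differs in count from the 8 to 0 among the 13 members, and the lists were not compared by a test. Of 35 other large subunit factors, 14 were higher and 4 lower at 6 h and 9 and 7 at 24 h, with NIFK, a partner of the proliferation antigen Ki-67, higher at both times (0.68 and 0.73) and the helicase gene DDX54 lower at both (-0.41 and -0.51). Of 14 genes of the nuclear exosome, which trims the precursor, 4 were higher and 3 lower at 6 h and 5 and 2 at 24 h, led by EXOSC8 (0.59 at both times). RNA polymerase III makes the 5S RNA. Of its 11 listed subunits 4 were higher and 3 lower at 6 h and 3 and 1 at 24 h, and POLR3C rose at both times, from 83.5 ± 0.666 to 167.8 ± 8.77 CPM at 6 h (1.01 ± 0.0554, adjusted p = 7.9e-10) and from 87.5 ± 1.29 to 165.0 ± 3.36 at 24 h (0.91 ± 0.0554, adjusted p = 1.47e-09).

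**Figure D4:**
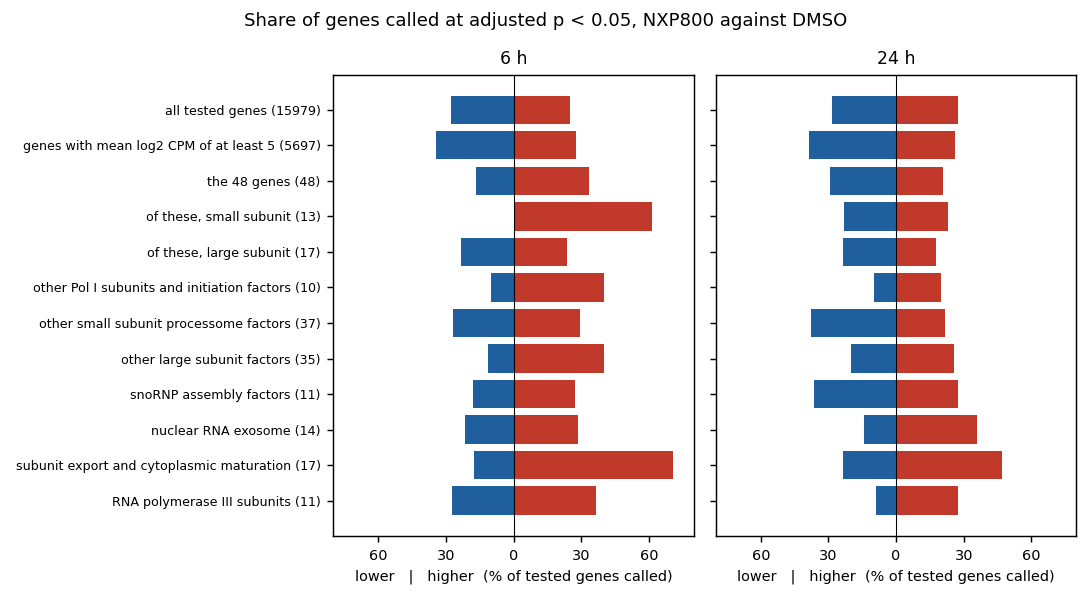
Share of tested genes called higher (red, to the right) or lower (blue, to the left) in percent, for all tested genes, well-expressed genes, the 48 genes and the other lists, with the number of tested genes in brackets. Subunit export genes and the small subunit members reach furthest right at 6 h (70.6% and 61.5%), and at 24 h they reach 47.1% and 23.1%.

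Several members host snoRNAs in their introns, which are released as the message is spliced. Of 7 members with a named snoRNA within their span on the same strand, NOP56, NOP58, DKC1, NCL, WDR43, GNL3 and PPAN, 3 were higher and 2 lower at 6 h and 2 and 2 at 24 h. Whether each snoRNA lies in an intron was not checked. Of the 41 members without a named snoRNA, 13 were higher and 6 lower at 6 h and 8 and 12 at 24 h. They include POLR1C, called at neither time, whose span holds 1 annotated RNA of this kind without a gene name. Of all tested genes 25% were higher and 27.8% lower at 6 h and 27.5% and 28.6% at 24 h. The base composition of the message was weakly related to the response at 6 h. The 16 members called higher at 6 h had a median GC content of 45.9%, the 8 called lower 56.7% and the others 48.5%. Their ranges overlapped, at 39.5 to 60.7%, 46.7 to 61.9% and 38.2 to 65.6%. Across the 48 genes, which are not independent replicates, GC content and log2 fold change had a Pearson r of -0.27 and a Spearman rho of -0.25 at 6 h and -0.17 and -0.15 at 24 h, beside -0.17 and -0.21 at 6 h and -0.04 and -0.09 at 24 h over 14528 tested genes. With the replicate block and offsets for GC content and length, 20 members were higher and 12 lower at 6 h and 13 and 19 at 24 h. This fit called 9440 of its 14528 genes at 6 h and 9934 at 24 h. At 6 h, called falls became smaller for GRWD1 (-0.35 to -0.18), RRS1 (-0.29 to -0.15) and NHP2 (-0.28 to -0.13), and called rises larger for RRP1 (0.23 to 0.41), RRP9 (0.20 to 0.37), NOP2 (0.20 to 0.32) and NOB1 (0.18 to 0.29). Other called rises became smaller, among them NOP58 (0.71 to 0.63), RRN3 (0.66 to 0.59), DDX21 (0.58 to 0.47) and WDR43 (0.42 to 0.33). Those of HEATR1 (0.20 to 0.096) and DDX18 (0.16 to 0.068) also shrank and were no longer called. POLR1B (-0.18, adjusted p = 0.00197) and NPM1 (-0.16, adjusted p = 0.00457) were then called lower at 6 h. At 24 h the called falls of FBL (-0.25 to -0.14), NHP2 (-0.23 to -0.13) and BOP1 (-0.24 to -0.13) became smaller. Any other part of GC content in the responses was not tested. Transcript length had a Pearson r of 0.04 at 6 h and -0.03 at 24 h.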

How the data were processed

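RNA-seq was measured in 12 libraries of MNNG/HOS cells, 3 for each of DMSO and NXP800 at 6 h and 24 h, grouped by their labels. The authors deposited unnormalized read counts for each gene, made by trimming with fastp 0.20.1, aligning with STAR 2.7.5a to hg38 and counting with HTSeq 0.12.4 on RefSeq genes of GRCh38.p14. The kit was strand-specific with paired ends of 100 bases. The strand setting and the treatment of overlapping genes are not given in the sources used here.

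The tools were edgeR 4.0.16, DESeq2 1.42.0 and limma 3.58.1 in R 4.3.3. Reads that HTSeq assigned to no single gene stayed out of library sizes and tests: no feature 2.73 to 8.14%, ambiguous 2.10 to 2.43% and multiple alignment 1.86 to 3.37% of read pairs. filterByExpr kept 15979 genes, TMM scaled the libraries, and all contrasts came from edgeR's quasi-likelihood test in a single model of the 4 conditions (common dispersion 0.007231) with Benjamini-Hochberg adjustment over all tested genes and calls at an adjusted p below 0.05. Every adjusted p comes from this test unless another is named. CPM use the TMM-scaled library totals. Replicates varied by more than counting noise (7.36 to 26.3 chi-square units per degree of freedom, so none was a duplicate), and this spread, not depth, sets the precision of all but the low genes.

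Replicate numbers pair the libraries: same-numbered NXP800 and DMSO libraries deviated together (r 0.159 to 0.329, at most 0.0580 for different numbers). The main model did not use this pairing, and the replicate block did. Alternatives were other scaling, filters, the libraries of one time only, the replicate block with and without offsets for GC content and transcript length (known for 90.9% of tested genes), each library left out, DESeq2's Wald test and an adjusted p below 0.01. The procedure was run on simulated counts without pairing, in which 200 genes changed 2-fold at 6 h. The main fit called 190 of these and 14 other genes. Smaller changes and paired libraries were not simulated. Gene positions are from RefSeq, exon overlaps, GC content and lengths from GENCODE, promoter windows from RefSeq for 40 of the 48 genes. The members and lists were chosen with earlier results of these data known. All 48 members could be named. From each other list, up to 2 rises and 2 falls per time were open to naming, the largest among called genes whose mean log2 CPM reached 1, and those given are a selection made after the values were seen.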

Additional observations from a re-analysis of the deposited data

Results flagged for a closer look

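For 12 of the 48 genes the response at 24 h differed from that at 6 h, by edgeR's test of the difference of the 2 responses (log2 scale, 24 h minus 6 h). The difference was called higher for 4.17% and lower for 20.8% of the 48 genes, beside 12% and 13.8% of all tested genes. UBTF (0.94) and RRS1 (0.25) were less negative or closer to 0 at 24 h. The difference was negative for DDX10 (-0.69), UTP20 (-0.69), TCOF1 (-0.42), DDX21 (-0.41), RRP12 (-0.40), HEATR1 (-0.37), RRP1 (-0.35), BOP1 (-0.34), WDR43 (-0.27) and NOLC1 (-0.24). Of the 12, 8 were called at an adjusted p below 0.05 in every alternative fit and with each library left out: UBTF, TCOF1, RRP12, UTP20, HEATR1, DDX10, DDX21 and BOP1. The groups of 3 libraries were too small to look for single libraries that stood apart.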

How the results depend on the processing

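Of the 24 members called at 6 h, 16 were called at an adjusted p below 0.05 in every alternative fit and with each library left out, as were 15 of 24 at 24 h. No called member changed sign. The replicate block lost no call and added 5 at 6 h and 11 at 24 h. Over all genes it called 9953 and 10411 at these times (main 8435 and 8953). For the difference it added 12, and called 5 members higher, 19 lower and 6284 genes in all (main 2, 10 and 4129). With GC and length offsets added it called 22 lower and 6471 genes, and the 24 h member median was -0.0343 (main -0.0633). With library size only, which moved the median of all genes at 24 h from -0.003 to 0.09, 16 members were higher and 9 lower at 24 h (main 10 and 14), the member median turned to 0.0263, and 5 differences were higher. The number of members with a higher difference was 1 with DESeq2's size factors, with no filter and at an adjusted p below 0.01, where 3 were lower and 2236 genes were called. Without single libraries it ranged from 1 to 3, the 6 h median from 0.0176 to 0.0786 and the 24 h median from -0.0815 to -0.0355, the last without NXP800 replicate 3 of 24 h. Every sign change was of a value near 0 that was not called. With library size only, at 24 h, POLR1C (0.0297), WDR75 (0.0230), DDX56 (0.0729) and RRS1 (0.0478) turned positive, LTV1 at 6 h read 0.00192, and FBL and BOP1 shrank to -0.165 and -0.148 at 24 h but were called. LTV1 at 6 h read 0.000705 with DESeq2's size factors, 0.0176 with the libraries of 6 h alone and 0.00202 with DESeq2's Wald test, and DDX56 at 24 h read 0.00234 with no filter and 0.00413 with the libraries of 24 h alone. With the replicate block and offsets, FBL (0.0639), NOP14 (0.0367), WDR75 (-0.0190), WDR12 (-0.0833) and NIP7 (-0.0704) changed sign at 6 h, and POLR1A (-0.0248), DDX18 (-0.0438), DDX56 (0.0934) and RRS1 (0.0775) at 24 h. Without single libraries, at 6 h, NOP14 ranged from -0.0778 to 0.00398, BYSL from -0.0138 to 0.0909, LTV1 from -0.0591 to 0.0428 and DDX56 from -0.0158 to 0.0635. At 24 h the ranges were POLR1A -0.0148 to 0.0492, NOP56 -0.0173 to 0.0529, NOP16 -0.0437 to 0.0765, DDX18 -0.0333 to 0.0511, DDX56 -0.0585 to 0.0395, BRIX1 -0.261 to 0.0540 and RRS1 -0.105 to 0.000863. The cause of these changes was not tested.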
